A study of Prunus persica with 8 samples.

Results

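The transcriptome of peach flower buds at 200 chilling units (200CU) was compared with that of buds at the start of chilling (0CU). Chilling units are a running sum of the cold hours that a bud has experienced, and these 2 stages span the entry of the buds into winter cold. RNA of flower buds of the nectarine cultivar Fantasia, depleted of ribosomal RNA, had been sequenced as paired-end libraries, 2 at 200CU and 2 at 0CU in the labels, and 2 more at each of the later stages with 475CU and 770CU. All buds came from 10-year-old trees of the same farm, and the trees differed in no genotype or treatment. According to the labels each stage was collected on a single day, 18 days after the first collection for 200CU, 35 days for 475CU and 63 days for 770CU. The methods describe groups of 3 to 4 plants as biological replicates for the other stages and do not mention the 200CU collection.

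The deposited table gives 22285 features with 1 column per stage, in FPKM, the number of fragments scaled by the authors to transcript length and library size. The features compared here were the 17974 that reached at least 1 FPKM in at least 2 of the 4 stages. Their levels were set side by side as log2(FPKM + 1), a scale on which a difference of 1 is close to a doubling for abundant features and understates the change of rare ones. Of the 22285 features 20839 carried PRUPE identifiers of annotated peach genes, 1116 carried XLOC identifiers of assembled loci, and 330 carried ENSRNA identifiers. None of the identifiers could be paired with gene names, so the genes named below are those that the study itself names, and markers of flower bud tissue could not be checked.

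Flower buds of peach are formed in summer and enter endodormancy in autumn, a state in which growth does not resume even in warm conditions. Chilling releases this state, and bud break then waits for warmth (ecodormancy). In plants, prolonged cold is known to be recorded in part through chromatin, by enzymes that write, erase or read marks on histones and methyl groups on DNA.

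Although only stage values were deposited, those of 21947 features (98.5%) resolved exactly, to the last digit given, into the mean of 2 libraries, each with a whole number of fragments. As a control, tiny relative shifts of at most 1e-06 were added to the values of 1000 features, after which 2 of them still resolved, compared with 983 before the shift. The single libraries were thereby recovered for 17647 of the 17974 features, and 327 could not be recovered. Recovery was less complete for abundant features, with 636 of the 918 features above 100 FPKM in a stage. The effective sizes were 25374451 and 22114037 fragments at 200CU, against 20594902 and 18051083 fragments at 0CU. Which recovered library is which labelled replicate is not known, and they are called here the larger and the smaller library of a stage. Their p-values measure only the spread between these libraries. Since each stage was 1 collection day, chilling, the day and any library batch cannot be told apart.

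The larger 0CU library stood apart from the other 7 libraries in a small set of features. In it 16 features lay at least 2 below every other library on the log2(FPKM + 1) scale, with 0 to 20.8 FPKM there and 7.90 to 3142 FPKM in the others. In the smaller 0CU library 1 feature lay as far below all the others, as did 1 in the smaller 475CU library, and none did in the remaining 5 libraries. Of the 16 features 10 had XLOC, 4 ENSRNA and 2 PRUPE identifiers. Their stage value at 0CU is the mean of a far lower value and that of the smaller library, and 7 of them were among the features counted below as higher at 200CU. Above all other libraries by at least 2 stood 2 features in the larger 0CU library, both counted below as lower at 200CU. In the larger 770CU library 1 XLOC feature did so, with 8.81 FPKM there and at most 1.41 FPKM in the others.

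Between 200CU and 0CU, 593 features (3.3% of the 17974) differed by at least 1. Of these 370 (2.06%) were higher and 223 (1.24%) were lower at 200CU, so 62.4% of the changes were rises. The median difference over all 17974 features was 0.01, with quartiles of -0.20 and 0.24, in values that were already scaled to nearly equal medians. The differences ran from -3.24 to 5.34. Large changes were mostly rises, with 50 features higher and 16 lower by at least 2, and 12 higher and 1 lower by at least 3. The values nearest to the limit were 1.0005 inside and 0.9995 outside it among rises, and -1.0001 inside and -0.9988 outside it among falls. Rescaling both stages to an equal sum, as for TPM, moved the median difference to 0.22, and 660 features were then higher and 122 lower by at least 1, or 84.4% rises. The summed FPKM was 641480 at 200CU and 763437 at 0CU, of which the ENSRNA features held 30.5% at 200CU and 42.5% at 0CU. Leaving these out, the stages summed to 445791 at 200CU and 438825 at 0CU. In whole buds, fewer cells of a type and less RNA per cell cannot be told apart.

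**Figure D1:**
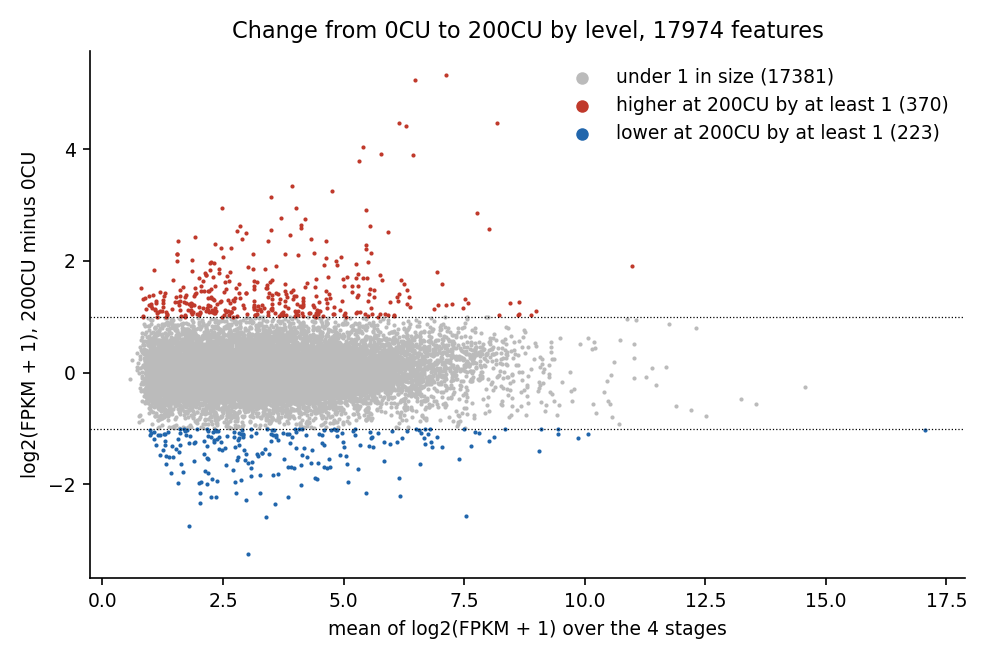
Difference of log2(FPKM + 1) between 200CU and 0CU (vertical axis) against the mean of log2(FPKM + 1) over the 4 stages (horizontal axis) for the 17974 features, from the authors' stage values. Red points are the 370 features higher at 200CU by at least 1, blue points the 223 lower ones, grey points all others, and the dotted lines mark 1 and -1. The rises reach 5.34 and the falls -3.24.

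The features that were higher had a median level of 12.0 FPKM at 200CU and 3.98 FPKM at 0CU, and 84 of the 370 lay under 1 FPKM at 0CU. The features that were lower had a median level of 6.57 FPKM at 200CU and 19.4 FPKM at 0CU, and 16 of the 223 lay under 1 FPKM at 200CU. No changed feature was listed at 0 at either stage. In single libraries the median of the 367 recovered features that were higher was 11.7 FPKM in the larger and 11.5 FPKM in the smaller 200CU library, against 3.61 and 3.59 FPKM in the larger and the smaller 0CU library. For the 214 recovered features that were lower it was 6.05 and 5.22 FPKM in the larger and the smaller 200CU library, against 18.2 and 15.5 FPKM in the 0CU libraries. Both libraries of a stage thus had like medians. The medians over all 17647 recovered features lay between 9.26 and 9.44 FPKM in the 8 libraries.

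Of the 367 features, 362 lay higher in both 200CU libraries than in both 0CU libraries, and in 5 the libraries overlapped. Of the 214 features, 198 lay lower in both 200CU libraries and 16 overlapped. Over all recovered features 5610 (31.8%) were without overlap in the direction of a rise and 5171 (29.3%) in that of a fall. The stage difference that chose the features also orders their libraries, so these counts are a description. The larger the within-stage spread, the less a stage value says, and the spread was uneven. The SD of the log2 difference between the libraries of a stage was 0.243 at 200CU and 0.247 at 0CU, while the later stages had 0.178 (475CU) and 0.172 (770CU), when features with fewer than 50 fragments in either library were left out. Among all recovered features that were higher, with no minimum of fragments, it was 0.440 at 200CU and 0.858 at 0CU, and among those that were lower 0.572 at 200CU and 0.784 at 0CU.

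As a reading of the change in libraries that had not chosen the features, features were chosen in 1 library of each stage and looked up in the other library of each stage, over the 4 ways of pairing them. Chosen as higher by at least 1 were 405 to 469 features. In the other libraries 89.5% to 97.3% of these were also higher at 200CU and 47.3% to 62.2% were so by at least 1, against 50.6% to 51.5% and 2.30% to 2.66% of all recovered features in those libraries. Chosen as lower were 252 to 390 features, of which 80.0% to 95.3% were also lower at 200CU in the other libraries and 30% to 49.8% were so by at least 1, against 48.5% to 49.4% and 1.43% to 2.21% of all recovered features. The lowest of these values for falls came from choosing in the larger libraries of both stages, where 390 features were chosen with a median of -1.25 and the median in the smaller libraries was -0.67. For rises the medians in the libraries not used to choose were 0.96 to 1.13. The 4 ways mirror each other in pairs, with the choosing and the other libraries swapped, so they are not separate readings. The filter of at least 1 FPKM also used all libraries. Within these limits the direction of a change was mostly shared between libraries, its size less so.

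**Figure D2:**
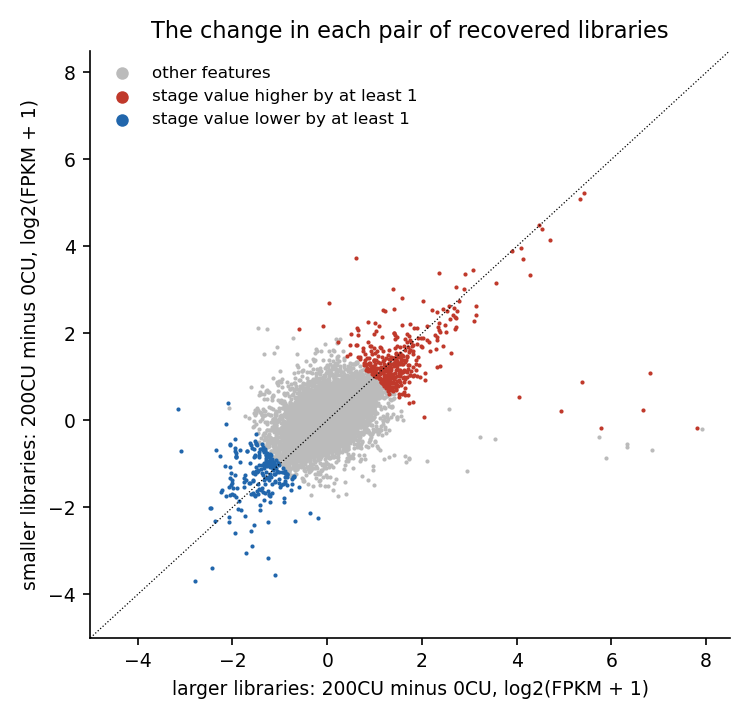
Difference of log2(FPKM + 1) between 200CU and 0CU in the smaller libraries (vertical axis) against that in the larger libraries (horizontal axis) for the 17647 recovered features. Red and blue points are the features whose stage value was higher or lower by at least 1, and the dotted line marks equal differences. The points far to the right at a height near 0 are features almost missing from the larger 0CU library.

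The difference was tested in single libraries with limma on the same log2 scale, with the 4 stages fitted together and p-values adjusted after Benjamini and Hochberg. In tests on simulated data more calls of this fit were counted as false than the nominal share. Its adjusted p-values may be too small, but the simulation cannot decide whether or by how much. The simulated spread was the same in all stages, unlike in these libraries. Features of low level also kept their stage differences in the simulation and were counted as unchanged. At an adjusted p below 0.05 limma called 4362 features, of which 2449 (13.9%) were higher and 1913 (10.8%) lower at 200CU. Most called changes were small, with a median size of 0.53, and 2102 of the features called higher and 1726 of those called lower differed by less than 1. Of the 367 recovered features that were higher by at least 1, limma called 347, and of the 214 that were lower it called 187, a description too, since the same libraries chose these features. The rescaling to the same total gave 6101 features called higher and 722 called lower. The number of calls also rested on the libraries in the fit. With only the 200CU and 0CU libraries it was 2007, without the larger 200CU library 2536, and without the larger 0CU library 2586.

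The largest rise was that of PRUPE_7G051300, on chromosome 7 by its identifier. It had 487 and 315 FPKM in the larger and the smaller 200CU library, against 10.5 and 7.45 FPKM in the 0CU libraries. The stage values differed 44.8-fold, and by limma the difference was 5.32 (SE 0.21, adjusted p = 4.1e-05). At 475CU its libraries still held 325 and 305 FPKM, and at 770CU they held 307 and 295 FPKM. The high level was thus reached by 200CU in both libraries and was still present at 770CU, the last stage sampled. PRUPE_7G050900, shortly before it in the numbering, had 311 and 194 FPKM in the 200CU libraries, against 6.68 and 4.73 FPKM in the 0CU libraries (limma difference 5.22, SE 0.22, adjusted p = 4.6e-05). Its levels at 475CU and 770CU were 181 to 208 FPKM. The fragment counts of PRUPE_7G051300 and PRUPE_7G050900 had the same order over the 8 libraries and were close to each other. They were 9005 and 9522 in the larger 200CU library and 157 and 166 in the larger 0CU library. Whether the 2 genes share reads was not tested, so they may not be separate rises. Both genes were chosen as the largest rises among features that limma had called on these libraries. Adjusted p-values below 0.05 were thus fixed in advance and are a description. What either gene encodes is not given in the sources used here. Their larger 200CU libraries were the highest of the 8 libraries for both genes, and the larger was also the higher library in each of the other stages.

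The largest fall was that of PRUPE_1G498900 on chromosome 1. It had 6.36 and 4.46 FPKM in the 200CU libraries, against 49.9 and 69.6 FPKM in the 0CU libraries, and by limma it fell by 3.24 (SE 0.20, adjusted p = 0.00016). The level at 475CU was 4.59 and 5.68 FPKM, close to that at 200CU, and at 770CU it was 0.839 and 0.711 FPKM, from 11 and 8 fragments. The step to 770CU had a limma difference of -1.78 with an adjusted p of 0.0024. PRUPE_1G237100, the next fall that the rule for named genes selected, had 2.85 and 4.01 FPKM in the 200CU libraries, against 18.9 and 23.8 FPKM in the 0CU libraries (limma difference -2.34, SE 0.19, adjusted p = 0.00038). It went down further at both later steps, to 1.53 and 1.09 FPKM at 475CU, and then to 0.0626 and 0.292 FPKM at 770CU, from 2 and 8 fragments. Neither gene had overlapping libraries between 200CU and 0CU, which their choice as largest called falls made likely. Of all recovered features 29.3% were without overlap in the direction of a fall. Their choice among called falls also fixed adjusted p-values below 0.05 in advance for the difference of these 2 genes between 200CU and 0CU.

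Among the 6 chromatin genes that the study names, limma called 1 higher and 1 lower at 200CU and did not call the other 4, against 13.9% and 10.8% of all features tested. The study may have picked these genes on the same libraries. HDA19-like (PRUPE_8G183700) belongs to the histone deacetylases, which remove acetyl groups from histone tails and are generally tied to repression. It had 59.9 and 52.7 FPKM in the 200CU libraries, against 31.9 and 34.9 FPKM in the 0CU libraries. The limma difference was 0.74 (SE 0.09, adjusted p = 0.0021), a change larger than that of 92.9% of the features compared. The libraries of HDA19-like did not overlap between these stages, as in 31.8% of all recovered features for a rise. Neither later step was called, with adjusted p-values of 0.677 and 0.512 by limma.

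JMJ24-like (PRUPE_6G322900) carries a jumonji domain, the fold of many histone demethylases. It had 20.0004 and 18.2 FPKM in the 200CU libraries, against 24.6 and 25.7 FPKM in the 0CU libraries, and fell by 0.38 (SE 0.08, adjusted p = 0.012 by limma). All later libraries, at 21.9 to 22.9 FPKM, lay between the levels of 200CU and 0CU. The call was lost after rescaling to the same total, where the difference shrank to -0.14 with an adjusted p of 0.174. It was also lost with only the 200CU and 0CU libraries in the fit, where the difference was again -0.38 and the adjusted p 0.0675. Over all 12 alternatives the adjusted p was 0.0098 to 0.174.

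CMT3-like (PRUPE_6G011600) is named after the chromomethylase that maintains CHG methylation of DNA in Arabidopsis. It had 6.55 and 7.06 FPKM in the 200CU libraries, against 6.33 and 4.43 FPKM in the 0CU libraries (limma difference 0.31, SE 0.18, adjusted p = 0.253). All its 200CU values lay above the 0CU values, but the 0CU libraries differed from each other by more than the larger of them differed from 200CU. MBD8-like (PRUPE_8G062800), of the family with a methyl-CpG-binding domain that reads DNA methylation, had 33.4 and 38.3 FPKM in the 200CU libraries, against 47.5 and 39.6 FPKM in the 0CU libraries (limma difference -0.27, SE 0.12, adjusted p = 0.125). ATXR7-like (PRUPE_2G042400) is named after an Arabidopsis methylase of histone H3 lysine 4, a mark of active genes. It had 12.2 and 13.8 FPKM in the 200CU libraries, against 14.5 and 14.2 FPKM in the 0CU libraries (limma difference -0.13, adjusted p = 0.298). SUVR2-like (PRUPE_8G216300), of the SU(VAR)3-9-related family of SET-domain proteins, had 20.5 and 18.3 FPKM in the 200CU libraries, against 22.5 and 22.0 FPKM in the 0CU libraries (limma difference -0.19, adjusted p = 0.118). The libraries of these 4 genes did not overlap between the stages, as in 31.8% of all features for a rise and 29.3% for a fall, and the differences were too small beside the spread to pass the test. Under the rescaling to the same total, which moves the median difference to 0.22, the limma differences were 0.52 for CMT3-like, -0.03 for MBD8-like, 0.10 for ATXR7-like and 0.05 for SUVR2-like, so the last pair turned in sign. With 1 library left out the difference of CMT3-like was 0.09 (without the smaller 0CU library) to 0.52 (without the larger 0CU library), and that of MBD8-like was -0.40 (without the smaller 0CU library) to -0.14 (without the larger 0CU library), with -0.18 without the larger 200CU library.

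UBQ (PRUPE_4G204900), a ubiquitin gene, served the study as the reference gene for real-time PCR in fruit. In buds it had 35.7 and 49.5 FPKM in the 200CU libraries, against 99.1 and 70.7 FPKM in the 0CU libraries. By limma it fell by 0.98 (SE 0.20, adjusted p = 0.013), a change larger than that of 96.5% of the features compared. Without the larger 0CU library the adjusted p was 0.0573 and without the larger 200CU library 0.0600, the highest of 12 alternatives, of which the lowest was 0.0097. At 475CU it had 66.9 and 72.5 FPKM, the 770CU libraries had 90.04 and 73.8 FPKM, and limma did not call either step, with adjusted p-values of 0.0996 and 0.539. The 200CU libraries were the lowest of the 8. Polyubiquitin genes contain near-identical repeats and copies, so reads may be shared with other ubiquitin genes and the values are uncertain. FLESHY (PRUPE_6G159200), a HECATE3-like transcription factor studied for its role in the fruit mesocarp, was below the filter with 0.294 and 0.169 FPKM in the 200CU libraries, against 0.272 and 0.0345 FPKM in the 0CU libraries. These values rest on 12 and 6 fragments at 200CU and on 9 and 1 fragments at 0CU, and a difference was not detectable at this depth (limma adjusted p = 0.704).

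**Figure D3:**
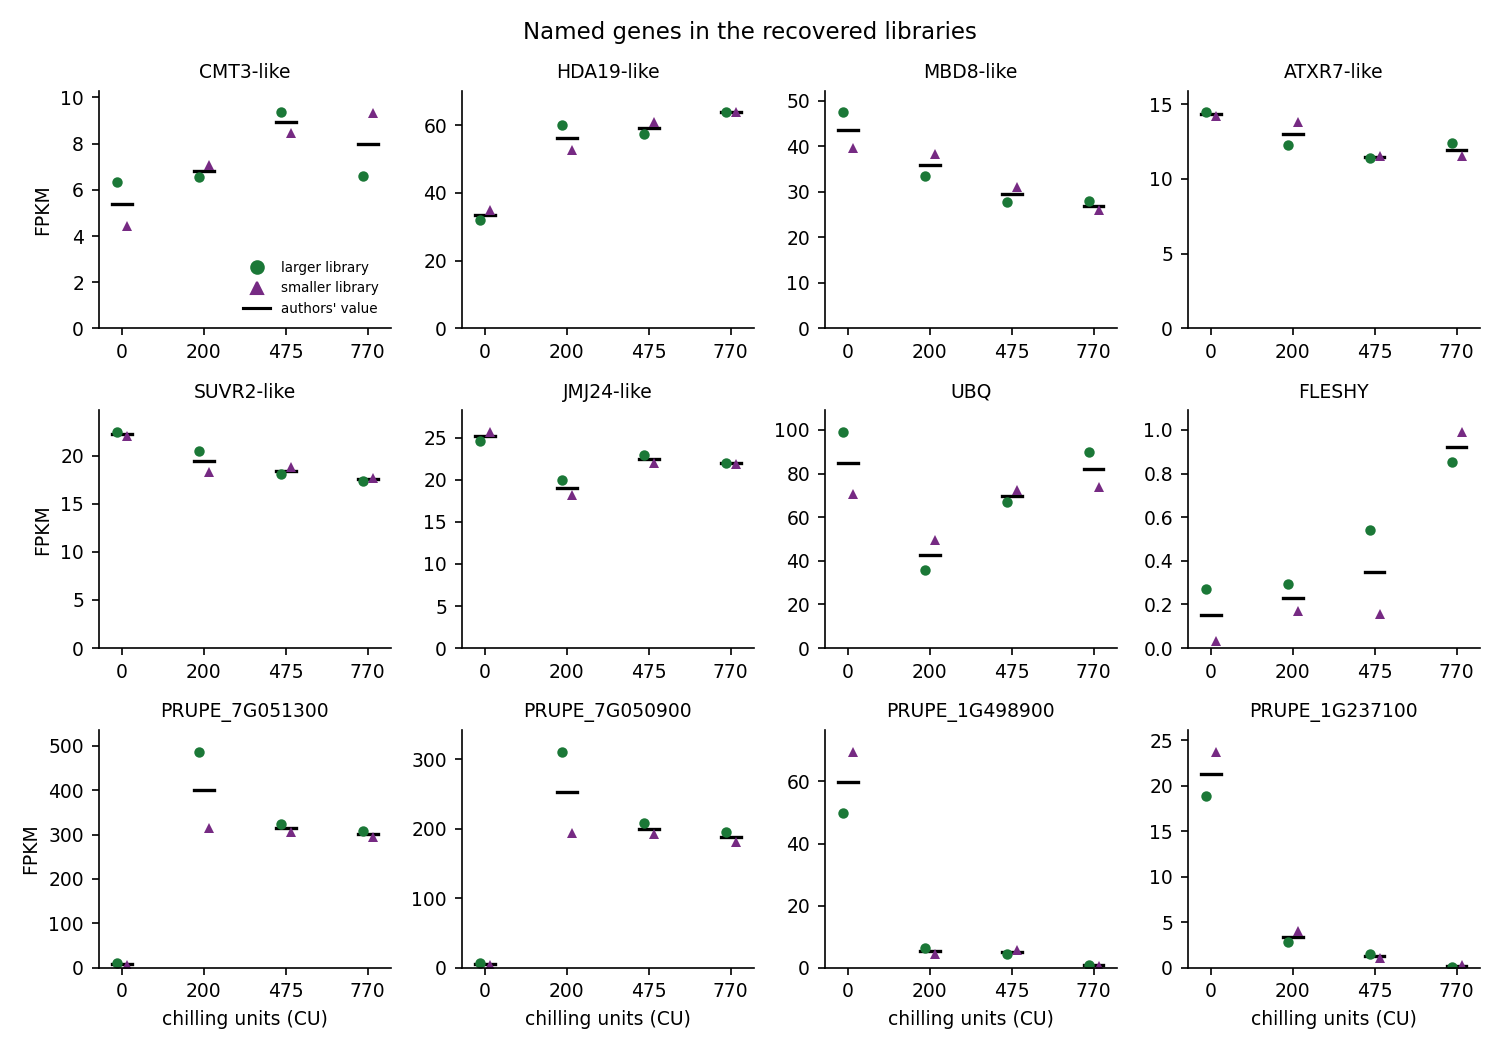
FPKM (vertical axes, each starting at 0) of the 12 named genes at 0, 200, 475 and 770 chilling units (horizontal axes). Circles are the larger and triangles the smaller recovered library of a stage, and black lines are the authors' stage values. PRUPE_7G051300 and PRUPE_7G050900 are high from 200CU on, PRUPE_1G498900 and PRUPE_1G237100 are low from 200CU on, and UBQ is lowest at 200CU.

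Of the 370 features that were higher at 200CU, 194 (52.4%) were still higher than 0CU by at least 1 at both 475CU and 770CU. A further 61 kept the change at 475CU and not at 770CU, 19 were back under the limit at 475CU and past it at 770CU, and 96 kept it at neither stage. Of the 223 that were lower, 99 (44.4%) kept the change at both stages, 27 at 475CU and not at 770CU, 29 at 770CU and not at 475CU, and 68 at neither. At a limit of 0.5 for the later stages 289 of the 370 and 177 of the 223 kept it at both. These counts share the 0CU value with the choice of the features, and the filter of at least 1 FPKM used the 475CU and 770CU values too. Without the filter 194 of 376 rises and 114 of 245 falls kept the change at both. The median of the rises was 1.30 at 200CU, 1.32 at 475CU and 1.16 at 770CU, each against 0CU, and that of the falls was -1.26, -1.07 and -1.18. The set medians against 0CU thus stayed at least 1 in size, while single features moved apart. Between stages, the median limma difference from 200CU to 475CU was -0.08 for the recovered rises and 0.27 for the recovered falls. Over all recovered features it was 0.002. The falls as a set thus came back in part by 475CU, in a step that shares the 200CU libraries with their choice. From 475CU to 770CU the medians were -0.05 for rises and -0.14 for falls, against 0.004 over all recovered features. At 770CU, 49 of the rises stood at least 1 above their 200CU value and 63 at least 1 below it. Among the falls 32 had gone down by at least 1 more and 25 had come back by at least 1. The sign had turned at 770CU in 29 of the rises, 10 of them by at least 1, and in 18 of the falls, 2 of them by at least 1.

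**Figure D4:**
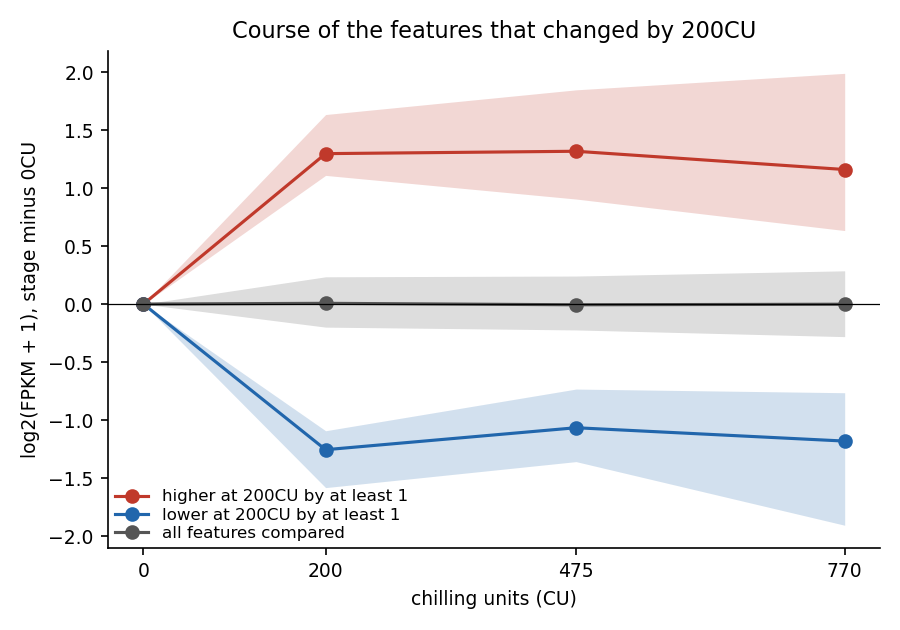
Difference of log2(FPKM + 1) from 0CU (vertical axis) at 0, 200, 475 and 770 chilling units (horizontal axis), from the authors' stage values. Lines and points are medians and bands are quartiles of the features higher at 200CU by at least 1 (red, 370), lower by at least 1 (blue, 223) and of all 17974 features (grey). The red median is 1.30, 1.32 and 1.16 at the 3 later stages and the blue one -1.26, -1.07 and -1.18, while the bands widen by 770CU.

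The step from 475CU to 770CU shares no library with the difference that chose the features. The filter of at least 1 FPKM and the limma estimate of the spread, however, used all stages. In this step limma called 36 (9.81%) of the 367 recovered rises higher and 70 (19.1%) lower at 770CU. Of the 214 recovered falls it called 18 (8.41%) higher and 39 (18.2%) lower. Over all features 760 (4.31%) were called higher and 1172 (6.64%) lower in this step. Both sets were thus called more often than the background in both directions. Each was called more often lower than higher, as were all features in this step. In the step from 200CU to 475CU, which shares the 200CU libraries, limma called 35 (9.54%) of the rises higher and 22 (5.99%) lower at 475CU, and 18 (8.41%) of the falls higher and 3 (1.40%) lower. Over all features 345 (1.96%) were called higher and 223 (1.26%) lower.

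The changed features were unevenly spread over the classes of identifiers. Of the 316 ENSRNA features compared 17 (5.38%) were higher and 30 (9.49%) lower at 200CU by at least 1. Of the 518 XLOC features 29 (5.60%) were higher and 9 (1.74%) lower, and of the 17140 PRUPE features 324 (1.89%) were higher and 184 (1.07%) lower. The larger share of changes among ENSRNA and XLOC features was not matched by calls. Limma called 10.7% of the ENSRNA features higher and 6.51% lower, 8.86% and 10.0% of the XLOC features, and 14.1% and 10.9% of the PRUPE features. Of the 46 rises with ENSRNA or XLOC identifiers 6 were among the features almost missing from the larger 0CU library. Among PRUPE features the share that changed was 2.20% on chromosome 6 and 3.33% on chromosome 1, with the other 6 chromosomes between them. By mean level it did not rise steadily. It was 2.21% under 2 FPKM, 3.56% up to 5 FPKM, 2.46% up to 10 FPKM and 2.43% up to 20 FPKM. Above these it was 2.93% up to 50 FPKM, 4.04% up to 100 FPKM and 6.63% over 100 FPKM. Over 100 FPKM falls were as frequent as rises, with 22 against 19 of 618 features.

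Changed features were short. The length that the recovery gives for a feature, the shortest that accounts for its values, had a median of 1294 bases for the features that were higher and 1257.5 bases for those that were lower, against 2266 bases for all features compared. Within PRUPE features the medians were 1402 and 1369 bases, against 2313 bases. Among PRUPE features averaging 5 FPKM or more, 12.7% of those up to 500 bases changed by at least 1, 7.53% of those above that and up to 1000 bases, 5.18% up to 1500 bases, 3.94% up to 2000 bases, 1.47% up to 3000 bases, 0.856% up to 5000 bases and 0.442% above 5000 bases. The share was smaller in each longer class. At a given FPKM a short feature rests on fewer fragments and so carries a larger counting error. The rises rested on a median of 874 fragments over the 4 libraries and the falls on 1144.5, with 23 and 10 features under 100 fragments. Over all recovered features, of any identifier and level, limma called 11.1% of those up to 500 bases higher. It called 18.9% of the next class, up to 1000 bases, higher, and 5.99% of those above 5000 bases. Its calls of lower features did not shrink in this way, with 8.96%, 9.77% and 9.64% in the same classes. The classes between 1000 and 5000 bases had 9.99% to 12.9% called lower. Among PRUPE features averaging 5 FPKM or more, 14.03% up to 500 bases and 10.8% up to 1000 bases were called lower. It was 13.9% up to 1500 bases and 11.6% above 5000 bases, with no steady change along the classes. What part length as such and the number of fragments have in this was not tested.

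**Figure D5:**
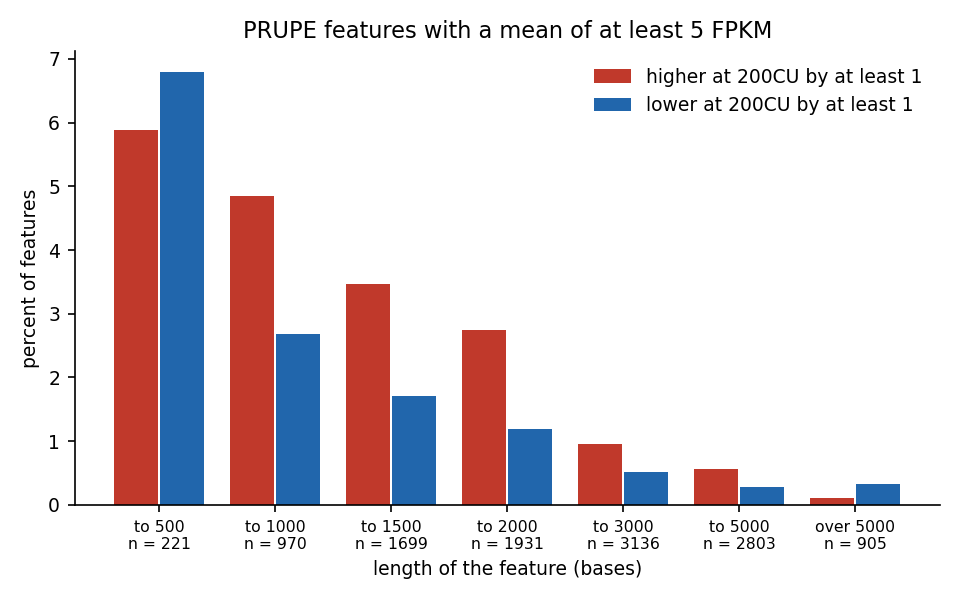
Percent of PRUPE features averaging 5 FPKM or more that were higher (red) or lower (blue) at 200CU by at least 1 (vertical axis), by the length of the feature in bases (horizontal axis, with the number of features in each class). Both directions together make up 12.7% of the shortest class and 0.442% of the longest.

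Changed genes often lay beside each other. PRUPE identifiers are numbered along each chromosome, and 17107 of the features compared have such a number. Of the 322 rises among them 62 (19.3%) had a rise as the next feature compared on at least 1 side, while 3.54% of all numbered features had one. Of the 184 falls 32 (17.4%) had a fall beside them, against 2.09% of all. There were 9 runs of at least 3 rises, with 34 features in all, and 3 runs of at least 3 falls, with 12 features. The longest run of rises, of 5 features on chromosome 7, holds PRUPE_7G051300 and PRUPE_7G050900. Its features had 7.65 to 612 FPKM at 200CU, against 0.535 to 26.6 FPKM at 0CU, with differences of 2.49 to 5.34. Limma called all 5, but the same libraries chose them. It called 347 of the 367 recovered rises, and 13.9% of all features tested were called higher. The changes of the 5 features were kept at both later stages. The differences were 3.34 to 4.99 at 475CU and 3.46 to 4.92 at 770CU, each against 0CU.

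The longest run of falls, of 6 features on chromosome 1, holds PRUPE_1G498900. Its features were 456 to 695 bases long. They had 3.24 to 10.1 FPKM at 200CU, against 15.6 to 59.8 FPKM at 0CU, with differences of -3.24 to -1.97. Limma called all 6, chosen on the same libraries, as it called 187 of the 214 recovered falls. Of all features tested 10.8% were called lower. The levels of this run were 1.74 to 6.72 FPKM at 475CU, PRUPE_1G498900 being near its 200CU level, and 0.304 to 1.54 FPKM at 770CU. A run of 4 rises on chromosome 3 had differences of 1.24 to 4.47, with 3.08 to 127 FPKM at 200CU, against 0.724 to 4.80 FPKM at 0CU, and 4.22 to 341 FPKM at 770CU. A run of 4 on chromosome 8 had differences of 1.046 to 2.86. Other runs came back. In a run of 4 rises elsewhere on chromosome 7 the differences of 1.19 to 1.52 at 200CU were 0.54 to 0.96 at 475CU and 0.34 to 1.01 at 770CU, each against 0CU. Neighbouring genes can be near-identical copies or overlap and then share reads, and their values within a run are not independent.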

How the data were processed

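The authors deposited FPKM, 1 value a stage, from Ribo-Zero RNA. The submitters' processing notes name Trimmomatic 0.39, HISAT2 and featureCounts. Each stage value was decomposed into 2 libraries (whole fragments, 1 length a feature between 30 and 20000 bases, at most 0.01 lengths by chance, library sizes from the lowest values). Limma 3.58.1 (R 4.3.3, trend, pseudocount 1, all stages, Benjamini-Hochberg) was run on recovered FPKM, with Python 3.11.15 for the rest. Decomposition and limma were tested on simulated data, where more limma calls were false than the nominal share. Named genes are those with identifiers in the paper and the 2 largest rises and 2 largest falls among PRUPE features that limma called. Gene lists planned by description were void, as 0 identifiers matched the 26412 RefSeq genes (assembly Prunus_persica_NCBIv2). Features, lists and tests were chosen with earlier results of these data known. Alternatives covered pseudocount, limit, scaling, filter, stages in the fit, trend and single libraries.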

Additional observations from a re-analysis of the deposited data

How the results depend on the processing

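The number of features that changed by at least 1 was 593, 989 with a pseudocount of 0.1 and 3012 at a limit of 0.5. The number that kept the change at both later stages was 293, 509 with a pseudocount of 0.1 and 466 where the later differences needed only 0.5. With the stage value taken from 1 library, an alternative chosen after seeing the data, these numbers lay between 609 and 708 and between 286 and 369. Limma called 4362 features, 6823 after rescaling to the same total, 2007 with only the 200CU and 0CU libraries, and 2536 to 3357 with 1 library left out, the lone library of that stage being assumed to vary like the others. It gave an unadjusted p below 0.05 to 6847 features. Rescaling to the same total reversed ATXR7-like to 0.11 in the stage values and 0.10 in limma and SUVR2-like to 0.052 in the stage values and 0.050 in limma. FLESHY reversed in limma to -0.15 after quantile normalization and, with 1 library left out, lay between -0.048 and 0.25. Of the limma values of named genes under these alternatives 136 kept direction and call, 4 lost the call (both of JMJ24-like and both of UBQ given above) and 4 reversed. Other settings (quantile normalization, no filter, a mean of at least 5 FPKM, a common total without ENSRNA features, no trend) left the numbers of features within 1.5 times. No paired analysis was possible because the recovered libraries carry no replicate number. Depth limits features of few fragments, and the 327 features not recovered, many of them abundant, have no test.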
